A study of Mus musculus with 42 samples.

Results

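The interferon-inducible GTPases examined here were 9 mouse genes chosen by symbol, out of 21897 protein-coding genes of the annotation. They comprised 5 guanylate-binding proteins (Gbp2, Gbp3, Gbp5, Gbp6 and Gbp7) and 4 immunity-related GTPases (Irgm1, Irgm2, Igtp and Iigp1). All positions are in mm10 (GRCm38) with GENCODE vM21 gene models. Gbp5 (ENSMUSG00000105504, chr3:142493978-142522344), Gbp7 (ENSMUSG00000040253, chr3:142530342-142550149), Gbp3 (ENSMUSG00000028268, chr3:142560026-142573209) and Gbp2 (ENSMUSG00000028270, chr3:142620602-142638008) lie in this order on the plus strand of chromosome 3. Gbp6 (ENSMUSG00000104713) is on the minus strand at chr5:105270702-105293698 and overlaps the gene Gm43302. Irgm1 (ENSMUSG00000046879) is on the minus strand at chr11:48861968-48871683. Igtp (ENSMUSG00000078853, chr11:58199556-58207591) and Irgm2 (ENSMUSG00000069874, chr11:58199618-58222782) are on the plus strand, and the GENCODE model of Irgm2 contains most of Igtp, whereas the RefSeq model of Irgm2 starts 15359 bp further on. Iigp1 (ENSMUSG00000054072) is on the plus strand at chr18:60376027-60392634.

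Chromatin was taken from bone marrow-derived macrophages of male C57Bl6/J mice aged 6 to 12 weeks, cultured for 7 days in L929-conditioned medium. One genotype was wild type (WT), and the other (KO) lacked the nuclear receptor Nur77, which Nr4a1 encodes. The KO is whole-body, made by crossing floxed Nr4a1 mice with CMV-Cre mice, with WT littermates as controls. For KO samples the genotype label names Cre, whereas the article describes KO mice without it, so Cre and loss of Nur77 cannot be told apart from the labels alone. Both genotypes were untreated (0 h) or received 100 ng/ml lipopolysaccharide (LPS), a bacterial outer membrane component, for 1 or 18 h. Chromatin immunoprecipitation with sequencing (ChIP-seq) was performed with an antibody against RNA polymerase II (Pol II) and with one against H3K27ac, the acetylation of histone H3 that marks promoters and enhancers in use. There were 3 libraries per antibody and 1 input for every combination of genotype and time (6 groups), 42 libraries in all. The article's methods speak of biological replicates for the peak files, but the labels do not say whether the 3 libraries came from separate mice, so p-values measure the spread between these libraries.

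Guanylate-binding proteins and immunity-related GTPases are among the most strongly interferon-induced proteins of mouse cells. They assemble on the vacuoles of intracellular parasites and bacteria and, for several guanylate-binding proteins, on bacteria themselves, where they break membranes and give inflammasomes access to microbial products. In macrophages LPS induces interferon-β through Toll-like receptor 4, and interferon signals through receptor-bound kinases to transcription factors that act at the interferon-stimulated response element (ISRE) of target promoters. Irgm1, Irgm2 and Igtp (also called Irgm3) belong to the regulatory subgroup that holds the effector GTPases, such as Iigp1 (Irga6), inactive on the membranes of the host cell.

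Promoter sequences are shown because the matched genes, all higher after LPS, share 1 motif. RefSeq promoters (GRCm38.p6) matched 7 of the 9 genes in 8 entries, and Gbp6 and Iigp1 had no entry. The ISRE core was searched as GAAANNGAAA on both strands in the 250 bases before the start, and was present in 7 of the 8 entries and in all 7 genes, against 2.98% of 32851 promoters of the same length. In the sequences, written 5′ to 3′ on the strand of the gene, capitals mark the letters of every ISRE match. The stretches are Gbp5 chr3:142496718-142496827, Gbp7 chr3:142530226-142530335, Gbp3 chr3:142559991-142560020, Gbp2 chr3:142620593-142620622, Irgm1 chr11:48871429-48871458 (minus strand), Igtp chr11:58199446-58199555 and Irgm2 chr11:58214862-58214971. They lie before the starts of the promoter entries they come from, although the Gbp3 stretch reaches past the start of the whole RefSeq gene of Gbp3, and in the GENCODE models used for the values all 30 bases of the Irgm1 stretch and 21 of the 30 of Gbp2 lie in an exon.
Gbp5: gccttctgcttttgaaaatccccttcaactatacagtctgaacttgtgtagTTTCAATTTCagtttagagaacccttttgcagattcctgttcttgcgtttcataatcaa
Gbp7: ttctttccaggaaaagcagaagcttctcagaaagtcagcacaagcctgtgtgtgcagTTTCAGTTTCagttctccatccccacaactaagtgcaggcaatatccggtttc
Gbp3: ggacacagTTTCAGTTTCTATTTCccagat
Gbp2: aactcttttagTTTCACTTTCactgtctta
Irgm1: tgtttcaaGAAATAGAAACCGAAActgatt
Igtp: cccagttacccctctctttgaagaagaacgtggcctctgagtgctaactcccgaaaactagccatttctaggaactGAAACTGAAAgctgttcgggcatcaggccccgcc
Irgm2: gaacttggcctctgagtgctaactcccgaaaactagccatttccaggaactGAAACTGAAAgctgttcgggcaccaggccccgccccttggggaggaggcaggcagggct

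The ISRE match lay between 15 and 165 bases before the start of its entry. Gbp3 and Irgm1 each held a pair of overlapping matches, whereas the other 5 genes held a single one. The promoters of Igtp and Irgm2 were identical at 197 of 214 aligned bases (92.1%), so tags there could be assigned to either gene during alignment. The GAS core (interferon-γ-activated site, TTCNNNGAA) was present in 4 genes (Gbp5, Gbp7, Igtp and Irgm2), against 7.02% of all promoters. The NF-kB motif GGGNNTTTCC occurred in Gbp5 alone (1.41% of all promoters) and the AP-1 motif TGANTCA in Gbp2 and Irgm1 (6.75%). NBRE, the extended half-site bound by Nur77 monomers (AAAGGTCA), was found in none of the 8 entries and in 1.34% of all promoters, which says only that these letters are not in these windows.

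The libraries held 21.7 to 36.1 M tags (M, mega) for Pol II, 13.5 to 55.4 M for H3K27ac and 25.6 to 45.3 M for input. The H3K27ac libraries of KO averaged 37.5, 31.6 and 40.03 M tags (0, 1 and 18 h), more than the 22.4, 16.1 and 20.9 M of WT, and deeper libraries can reveal weaker regions. Values are normalized tags, the tags per 10 M of a library in the enriched regions found there, and 0 means that no region was found. Pol II was summed over the gene body with 500 bp on either side and H3K27ac within 2500 bp of the start. The tags of a region were taken as even along its length. A short window inside a long region therefore holds a share of the whole region rather than a local measure. Log2 changes are between values with 10 added, which understates changes of low genes, and calls rest on an adjusted p under 0.05 (limma, Benjamini-Hochberg over all tested genes). A change in RNA synthesis per cell and a change in the share of responding cells cannot be told apart in such bulk samples. Pol II at Nr4a1 itself was 195 ± 11.3 (SD, n = 3) normalized tags in WT and 78.1 ± 8.96 in KO at 0 h (log2 change −1.22, adjusted p = 0.00012). At 1 h it was 26.3 ± 3.74 in WT and 36.4 ± 2.77 in KO (0.36, adjusted p = 0.089), and at 18 h 4.48 ± 3.95 in WT and 0 in every KO library (−0.49, adjusted p = 0.044). At 18 h Nr4a1 was tested only through WT, where its mean was below the 10 added, which fixed the direction. All 9 macrophage markers were found in every group, and 12 of 22 markers of other cells were at 0 in every Pol II library. The summed Pol II signal of the macrophage markers ranged from 23202 to 27411 in WT and 25994 to 28001 in KO at 0 h, from 34999 to 36989 against 26140 to 26995 at 1 h, and from 46431 to 49028 against 39544 to 42740 at 18 h. Gene by gene, 4 of the 9 were called lower and 1 higher in KO at 1 h, against 7.49% and 38.2% of tested genes. At 18 h 5 were lower and 1 higher, against 13.5% and 7.58%. Their summed H3K27ac overlapped at 1 h (6321 to 6733 in WT and 6183 to 7081 in KO) and was lower in KO at 18 h (8440.2 to 8643 against 5869 to 7796). In H3K27ac 3 of these markers were called higher and none lower at 1 h, against 11.1% and 7.41% of tested genes. At 18 h 1 was called lower, against 3.24% of tested genes called in either direction. The summed Pol II signal of the markers of other cells ranged from 485 to 622 in WT and 533 to 594 in KO at 0 h, from 1241 to 1459 against 1260 to 1396 at 1 h, and from 629 to 712 against 577 to 1118 at 18 h. In Pol II 4 of 8 of them tested were called higher and none lower in KO at 1 h, against 38.2% and 7.49% of tested genes. At 18 h 1 of 8 was higher and 3 were lower, against 7.58% and 13.5%. At 0 h none of 9 was called (limma; 3 had an unadjusted p under 0.05). In H3K27ac 2 of 7 were higher and none lower at 1 h, against 11.1% and 7.41%.

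LPS raised Pol II at all 9 genes in both genotypes at 1 h and at 18 h (adjusted p at most 0.006). By comparison, 18.6% of tested genes were called higher at 1 h in WT, 20.6% at 1 h in KO, 33.3% at 18 h in WT and 28% at 18 h in KO. In the narrower window of 500 bp on either side of the start, however, Igtp and Irgm2, which share it, were lower at 1 h in WT (−0.58, adjusted p = 3.7e-05) and at −0.18 in KO (adjusted p = 0.11). In WT the mean at 1 h was 2.30 to 157 times that at 0 h over the 9 genes, with Gbp5 and Gbp7 at the upper end and the immunity-related GTPases at the lower end. A single region covered Gbp5 and Gbp7 in WT at 1 h, so the split between these 2 genes is uncertain. Over both as 1 window the log2 change at 1 h in WT was 7.11. The log2 changes at 1 h in WT were 6.81 ± 0.15 (SE) for Gbp5, 6.93 ± 0.27 for Gbp7, 4.39 ± 0.10 for Gbp3, 3.76 ± 0.06 for Gbp2 and 2.45 ± 0.22 for Gbp6. They were 1.46 ± 0.13 for Igtp, 1.32 ± 0.09 for Irgm2, 1.23 ± 0.06 for Irgm1 and 1.12 ± 0.15 for Iigp1. Most were smaller within 500 bp of the start, at 3.73 for Gbp5, 3.15 for Gbp7, 1.66 for Gbp3, 2.35 for Gbp2 and 0.70 for Gbp6, whereas Irgm1 (1.19) and Iigp1 (1.19) were similar in size. The changes at 18 h ranged there from 0.58 to 4.04 in WT and from 0.77 to 4.74 in KO. Over the gene bodies at 18 h the largest ratios were in KO, where means were 4.96 to 614 times those at 0 h. The 614 is of Gbp5, whose KO mean at 0 h (11.7) was below the KO input there (36.5), so its exact size has little meaning.

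**Figure D1:**
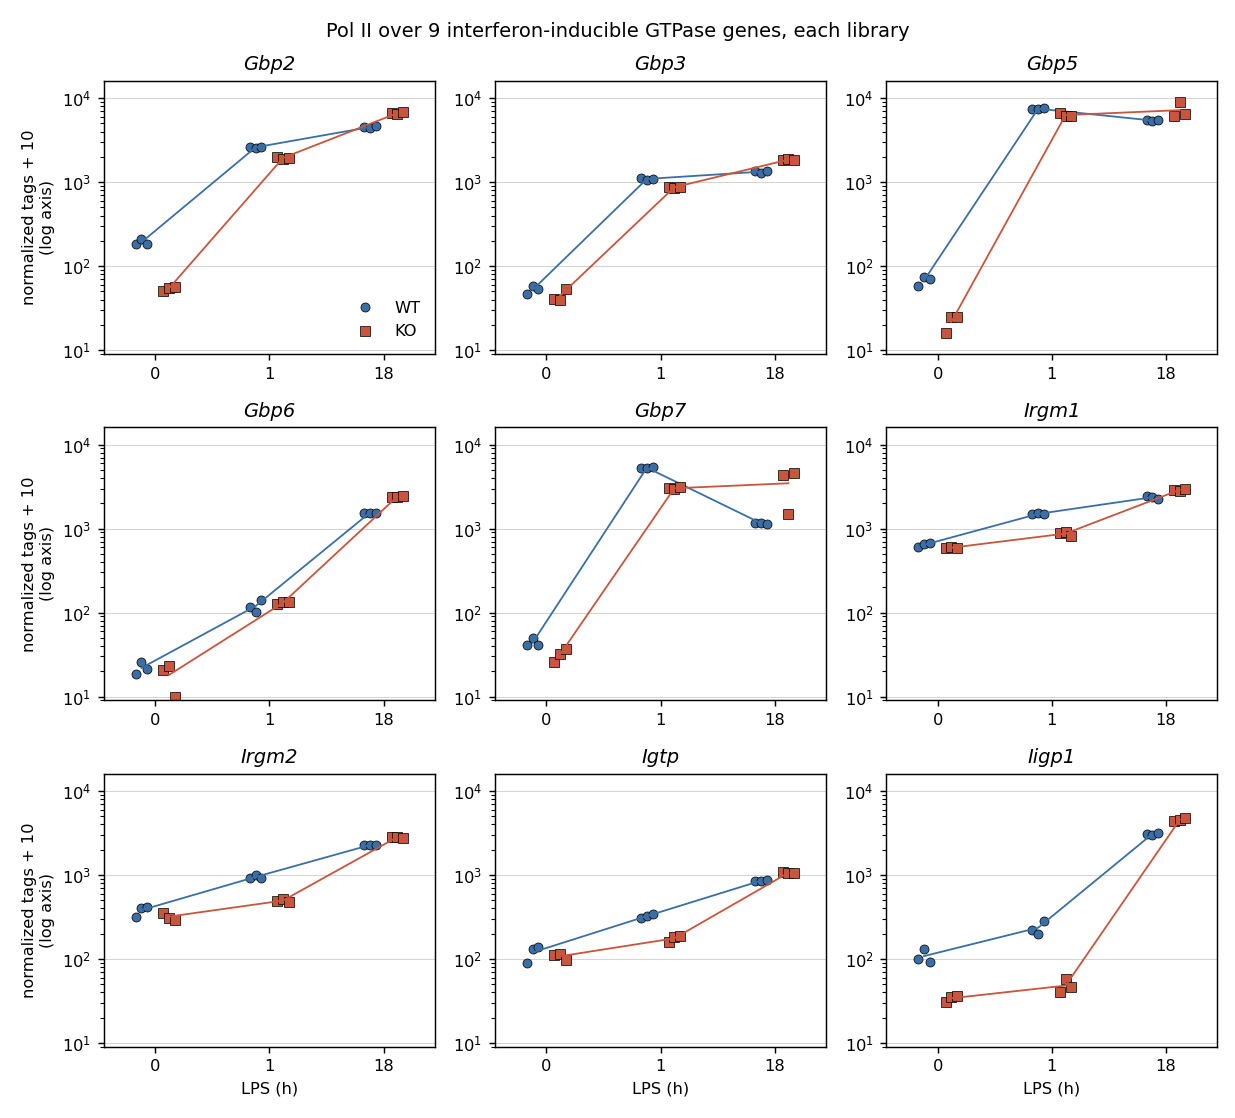
Pol II signal (normalized tags plus 10, log axis) at each of the 9 genes in every library at 0, 1 and 18 h of LPS, for WT and KO. Points are libraries and lines join group means. KO lies below WT at 1 h for every gene but Gbp6 and above WT at 18 h for all 9, while Gbp5 and Gbp7 fall from 1 to 18 h in WT.

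Levels between genes are comparable only per length. Before LPS, Pol II was densest at Irgm1, with a mean of 58.8 ± 2.93 normalized tags per kb in WT (SD, n = 3) and 54.3 ± 1.24 in KO. Irgm2 followed at 15.4 ± 2.24 per kb, Igtp at 12.2 ± 2.99 and Gbp2 at 9.90 ± 0.82 in WT, and Gbp6 was last at 0.50 ± 0.15. Irgm2 shares part of its window with Igtp, so these levels are not independent. At 18 h Gbp2 was densest in both genotypes, at 245 ± 7.76 per kb in WT and 359.6 ± 12.1 in KO, ahead of Irgm1 at 219 ± 8.87 and 269 ± 9.53.

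Before LPS the genotypes differed at 3 of the 9 genes, all lower in KO, against 2.73% of tested genes called lower. Gbp2, a guanylate-binding protein that acts on parasite and bacterial vacuoles, had 175, 199.6 and 172 normalized tags in the WT libraries and 40.6, 45.3 and 46.2 in the KO libraries. The groups lay far apart, and the log2 change was −1.83 ± 0.06 (adjusted p = 2.4e-12). Gbp5, which promotes inflammasome activation, had 47.6, 64.6 and 60 in WT and 6.02, 14.5 and 14.6 in KO (−1.65 ± 0.15, adjusted p = 1.3e-06). Iigp1, an effector that disrupts parasite vacuoles, had 90.2, 122 and 82.6 in WT and 20.4, 25.7 and 26.1 in KO (−1.65 ± 0.15, adjusted p = 9.5e-07). No KO library reached the lowest WT library at any of these 3 genes. These are low values set beside the LPS times. Little was left of the difference at Gbp2 (−0.17, adjusted p = 0.28) and Iigp1 (−0.17, adjusted p = 0.70) in the narrower window of 500 bp on either side of the start, where only Gbp5 was called (adjusted p = 5.9e-05). Mean gene-body densities were 9.90 per kb in WT and 2.39 in KO at Gbp2, and 5.58 and 1.37 at Iigp1. At such densities a window this short holds no more tags than the 10 added, which pulls changes towards 0. Losing these calls there does not show equal levels. Gbp7, although not called (adjusted p = 0.37), had 30.9, 39.3 and 31.4 in WT and 15.9, 22.0 and 27.3 in KO without overlap. At Gbp3, Gbp6, Igtp, Irgm1 and Irgm2 the ranges overlapped. The 4 genes with the largest Pol II density at rest thus included 3 (Irgm1, Irgm2 and Igtp) whose level at 0 h was not called between genotypes, with log2 changes of −0.11 to −0.25.

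At 1 h Pol II was lower in KO at 7 of the 9 genes and higher at none, against 7.49% of tested genes called lower, while the median of all tested genes was 0.24 higher in KO on the log2 scale. In the narrower window of 500 bp on either side of the start Gbp2, Gbp3, Iigp1 and Irgm1 were called lower. Igtp and Irgm2, which share that window and are 1 observation there, were called higher. The 7.49% is of the gene-body fit and does not hold for that window. All 4 immunity-related GTPases were among the 7 genes lower over the gene body. Iigp1 showed the largest difference, with 213, 187 and 277 normalized tags in WT and 30.8, 47.6 and 36.2 in KO (log2 change −2.29 ± 0.15, adjusted p = 4.8e-09), which was −0.82 (adjusted p = 0.0028) within 500 bp of the start. The KO libraries after 1 h of LPS stayed below the WT libraries without LPS. Irgm1, which directs autophagy and restrains the effector GTPases, had 1472, 1520.0 and 1464 in WT and 879.5, 901 and 807 in KO (−0.78 ± 0.06, adjusted p = 2.9e-08). Irgm2, of the same regulatory subgroup, had 901, 991 and 923 in WT and 475, 515 and 469 in KO (−0.93 ± 0.09, adjusted p = 5.5e-07), and −0.85 when the RefSeq model, which leaves out Igtp, was used. Igtp had 295, 318 and 329 in WT and 148, 171 and 179.7 in KO (−0.88 ± 0.13, adjusted p = 5.4e-05). For these 4 genes the highest KO library was well below the lowest WT library. In the window of 500 bp on either side of the shared start of Igtp and Irgm2, the direction was opposite to that over the gene bodies (0.51, adjusted p = 0.0013). Values in so short a window depend on how far regions extend and are not Pol II at the start itself. Regions covered a mean of 96.8% of the Igtp gene-body window in WT and 46.0% in KO at 1 h, and 33.5% in WT at 0 h. The part of this in the opposite direction was not tested.

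Among the guanylate-binding proteins at 1 h, Gbp2 had 2635, 2546 and 2587 normalized tags in WT and 1989, 1866 and 1946 in KO (−0.42 ± 0.06, adjusted p = 7e-05). Gbp3 had 1103, 1049 and 1093 in WT and 863, 851 and 862 in KO (−0.33 ± 0.10, adjusted p = 0.011). Gbp7, which binds bacterial and parasite vacuoles, had 5274, 5209 and 5434 in WT and 3032, 2917 and 3074 in KO (−0.82 ± 0.27, adjusted p = 0.023). In WT at 1 h a single region covered Gbp5 and Gbp7, so that both had the same density (255 normalized tags per kb) and the value of Gbp7 is a share by overlap, and over both genes as 1 window the difference was −0.43. These 3 genes were lower in every KO library than in every WT library, although the call of Gbp7 was lost without KO 1 h replicate 2 (−0.80) or WT 1 h replicate 3 (−0.80), and in the narrower window at the start (−0.24, adjusted p = 0.50). Gbp5 was lower without reaching the threshold, at 7443, 7352 and 7669 against 6709.6, 6099 and 6043 (−0.25 ± 0.15, adjusted p = 0.18), although its ranges did not overlap. Gbp6 was the exception, with 108, 90.9 and 129 in WT and 117, 122 and 123 in KO (0.14 ± 0.22, adjusted p = 0.62), and its ranges overlapped. Over the 9 genes the KO mean was 0.169 (Iigp1) to 1.10 (Gbp6) times the WT mean, and the groups were apart at 8 of them.

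At 18 h the direction was the reverse. Pol II was higher in KO at 7 of the 9 genes and lower at none, against 7.58% of tested genes called higher and a median of all tested genes of −0.10. The KO libraries were above the WT libraries without overlap at all 9 genes, with KO means 1.23 to 3.01 times WT. Within 500 bp of the start, a window for which the 7.58% does not hold, Gbp2, Gbp3, Gbp7 and Irgm1 were called. The calls of Iigp1 (0.54, adjusted p = 0.075), Irgm2 (0.29, adjusted p = 0.09) and Gbp6 (0.56, adjusted p = 0.21) were lost there. Gbp2 had 4555, 4350.1 and 4625 normalized tags in WT and 6574, 6423 and 6862 in KO (0.55 ± 0.06, adjusted p = 6.5e-06). Gbp3 had 1336, 1291 and 1344 in WT and 1842, 1856 and 1834 in KO (0.48 ± 0.10, adjusted p = 0.0017). Gbp6 had 1529, 1541 and 1531 in WT and 2382, 2387 and 2400.3 in KO. Its 18 h spread was very small, but the test, which pools the spread of all 6 groups, gave 0.64 ± 0.22 (adjusted p = 0.049), and the change was called in only 10 of the 30 other settings tried.

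Of the immunity-related GTPases at 18 h, Iigp1 had 3104, 2983 and 3136 in WT and 4416, 4475 and 4725 in KO (0.56 ± 0.15, adjusted p = 0.012). Irgm1 had 2451, 2339 and 2262 in WT and 2902, 2774 and 2976 in KO (0.29 ± 0.06, adjusted p = 0.0015). Irgm2 had 2256, 2249.8 and 2280.0 in WT and 2861, 2803 and 2780.3 in KO (0.31 ± 0.09, adjusted p = 0.019), a call lost without KO 18 h replicate 1 (0.30) or WT 18 h replicate 1 or 2 (0.31 each). Igtp stood at 844, 841 and 853 against 1070.0, 1048 and 1039.6 (0.31 ± 0.13, adjusted p = 0.099), without overlap but not called. At 18 h a single region covered the windows of both Igtp and Irgm2 in every library, so that both carried the same density (93.6 normalized tags per kb in WT and 116 in KO) and the same ratio of KO to WT (1.24), and they are 1 observation, although only the call of Irgm2 passed the threshold. These differences of 0.29 to 0.56 at the immunity-related GTPases were smaller in size than those at 1 h and opposite in sign. The mean of KO was below that of WT at 1 h and above it at 18 h at every gene but Gbp6, which was higher in KO at both times.

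**Figure D2:**
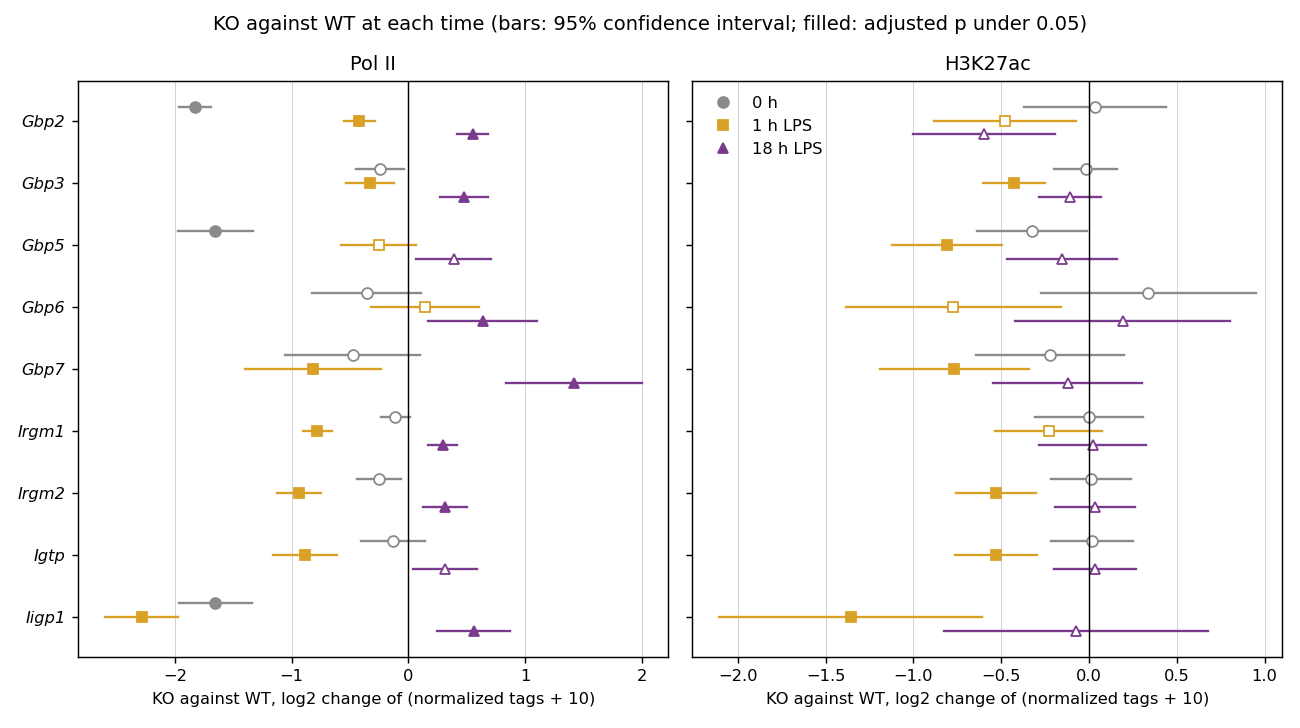
Log2 change between KO and WT at 0, 1 and 18 h of LPS for each of the 9 genes, for Pol II and H3K27ac, on the scale of log2 of normalized tags plus 10. Points are the fitted changes with 95% confidence intervals, filled where the change was called. The Pol II points lie mostly below 0 at 1 h and above 0 at 18 h, whereas H3K27ac is below 0 at 1 h and spread around 0 at 18 h.

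The change from 1 to 18 h was therefore larger in KO. Tested as an interaction, chosen after the values were seen, it was higher in KO at 8 of the 9 genes, against 6.79% of tested genes called higher, with a log2 median over the 9 genes of 1.07 against −0.33 over all tested genes. It was 2.85 ± 0.21 for Iigp1 (adjusted p = 4.9e-08), 2.24 ± 0.39 for Gbp7 (0.00033, and 1.14 over Gbp5 and Gbp7 as 1 window), 1.25 ± 0.13 for Irgm2 (1.7e-06), 1.20 ± 0.18 for Igtp (0.00011) and 1.07 ± 0.08 for Irgm1 (7.4e-08). In the narrower window at the start Irgm2 and Igtp turned to −0.22 (adjusted p = 0.26) and Iigp1 was at 1.36 (adjusted p = 0.0013). Among the other guanylate-binding proteins it was 0.97 ± 0.09 for Gbp2, 0.81 ± 0.14 for Gbp3 and 0.64 ± 0.21 for Gbp5, and 0.49 ± 0.31 for Gbp6, which was not called (adjusted p = 0.21). The call of Gbp5 was lost without KO 1 h replicate 2 or 3 or KO 18 h replicate 2 (0.47 to 0.62). Within genotypes, 7 genes rose from 1 to 18 h and 2 fell in WT, against 66.5% of tested genes called higher and 18.8% lower. In KO 7 rose and none fell, against 55.2% called higher. The WT genes that fell were Gbp5 (−0.47 ± 0.15, adjusted p = 0.0086) and Gbp7 (−2.20 ± 0.27, adjusted p = 8.3e-07), of which Gbp5 turned to 0.11 (adjusted p = 0.46) under quantile normalization. With all tested genes rising by 0.81 in WT and 0.47 in KO at the median, Gbp2, Gbp3 and Irgm1 rose by less than the median in WT, and centring on it turned their direction (−0.07, −0.58 and −0.21).

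Relative to the start of stimulation, the genotypes also differed in their response. At 1 h the difference between the LPS changes, KO minus WT, was called at 6 genes. It was higher at Gbp2 (1.41 ± 0.09, adjusted p = 3.8e-08) and Gbp5 (1.40 ± 0.21, adjusted p = 0.00031), against 14.2% of tested genes. It was lower at Igtp (−0.75 ± 0.18, adjusted p = 0.0094), Irgm2 (−0.68 ± 0.13, adjusted p = 0.0015), Irgm1 (−0.67 ± 0.08, adjusted p = 4.4e-05) and Iigp1 (−0.63 ± 0.21, adjusted p = 0.046), against 4.2% of tested genes, and the call of Iigp1 was lost in 14 fits without 1 library, at −0.48 to −0.66. In the narrower window at the start only Gbp5 and Irgm1 were called, Gbp2 turned to −0.22 and Igtp and Irgm2 to 0.41. At Gbp2 and Gbp5 the KO values at 0 h, which enter this comparison, were low, and the KO libraries at 1 h still lay below WT at both genes. At 18 h it was higher at 8 genes (all but Igtp, at 0.44 ± 0.18, adjusted p = 0.12), against 4.85% of tested genes, with 2.38 ± 0.09 for Gbp2, 2.21 ± 0.21 for Iigp1, 2.04 ± 0.21 for Gbp5 and 1.90 ± 0.39 for Gbp7 at the upper end and 0.41 ± 0.08 for Irgm1 at the lower end. The low KO values at 0 h enter here as well. At Gbp2, Iigp1 and Gbp5 the KO mean was 0.24, 0.25 and 0.20 times the WT mean at 0 h. At 18 h it was 1.47, 1.48 and 1.33 times the WT mean, so these differences are not a larger KO signal at 18 h alone. Gbp3 was at 0.72 ± 0.14, Irgm2 at 0.57 ± 0.13 and Gbp6 at 0.99 ± 0.31, the last a call lost in most fits without 1 library, at 0.87 to 1.0. Within 500 bp of the start Gbp5, Gbp7, Irgm1 and Gbp2, the last at 0.70, were called, and the calls were lost at Iigp1 (0.70, adjusted p = 0.14), Gbp3 (0.36, adjusted p = 0.11), Irgm2 (0.18, adjusted p = 0.53) and Gbp6 (0.87, adjusted p = 0.19).

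Gbp5 and Gbp7 are adjacent, and their values turned on how far the enriched region extended. A single region reached both genes in all 3 WT and all 3 KO libraries at 1 h, in KO replicates 1 and 3 at 18 h, in none of the WT libraries at 18 h and in none at 0 h. At 1 h it covered the whole of Gbp7 in WT but ended within Gbp7 in KO, where a sparser region followed. Where a region covers both, its tags are shared by overlap, which makes the split between the genes uncertain. Neighbouring regions here stayed separate although less than 1000 bp apart in all 3 KO libraries at 1 h, in KO replicate 2 and in WT replicate 3 at 18 h. This is visible in KO at 18 h, where replicate 2 had 9040.2 normalized tags at Gbp5 and 1485 at Gbp7 while replicates 1 and 3 had 6099 and 6429 at Gbp5 and 4322 and 4555 at Gbp7. WT had 5430.1, 5339.6 and 5456 at Gbp5 and 1157, 1162 and 1121 at Gbp7. Tested one by one, the genotypes differed at 18 h by 0.39 ± 0.15 at Gbp5 (adjusted p = 0.08) and by 1.42 ± 0.27 at Gbp7 (adjusted p = 0.0012). The joint window from 500 bp before Gbp5 to 500 bp past Gbp7, added after the values were seen, removes this split. It held 14578 ± 318 (SD, n = 3) in WT and 10789 ± 479 in KO at 1 h (−0.43, adjusted p = 0.0079), and 7485 ± 81.8 in WT and 12176 ± 323 in KO at 18 h (0.70, adjusted p = 0.00044). WT therefore fell between 1 and 18 h (−0.96) and the change in KO was not called (0.17, adjusted p = 0.19), and the difference between those changes was 1.14 (adjusted p = 9.2e-05). At 0 h it held 96.3 ± 11.4 in WT and 33.4 ± 10.3 in KO (−1.32, adjusted p = 1.2e-06).

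**Figure D3:**
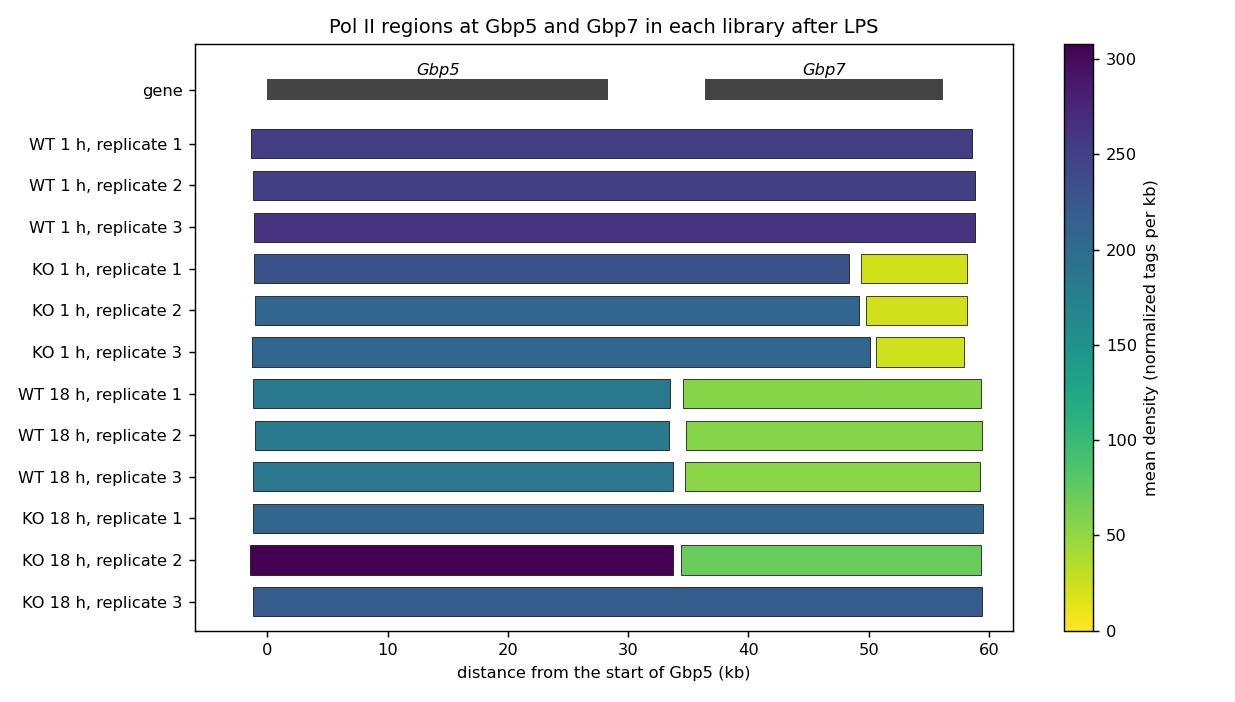
Enriched Pol II regions over the stretch from Gbp5 to Gbp7 in every library after 1 or 18 h of LPS, drawn by distance from the start of Gbp5 (kb) and coloured by normalized tags per kb, with the gene bodies as dark bars. At 1 h a region from Gbp5 covers all of Gbp7 in WT and ends within Gbp7 in KO, whereas at 18 h only KO replicates 1 and 3 have a region over both genes.

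H3K27ac at the starts rose with LPS in both genotypes. In WT all 9 genes were higher at 1 h and at 18 h, against 25.3% and 23.5% of tested genes called higher. In KO 8 genes were higher at 1 h (Iigp1 was too low to test) and 9 at 18 h, against 20.4% and 18.4%. Iigp1 had no region at 0 h in all but 1 WT library, so its LPS changes were tested only through the LPS libraries. From 1 to 18 h it rose at 7 genes in WT and 8 in KO, against 29% and 17.2% called higher. In WT the call of Gbp5 (0.38 ± 0.15, adjusted p = 0.037) was lost without any 1 of the 6 WT libraries at 1 and 18 h (0.34 to 0.42) and that of Gbp3 (0.27 ± 0.08) without WT 1 h replicate 3 (0.20), and Igtp and Irgm2 turned to −0.22 within 1000 bp of the start. In KO that window lost the calls of Igtp (1.25, and 0.18 there, adjusted p = 0.22), Irgm2 (1.26, and 0.16 there, adjusted p = 0.27) and Gbp7 (0.50 there, adjusted p = 0.072). Gbp2 was not called from 1 to 18 h in either genotype (0.01 in WT and −0.11 in KO), nor was Gbp7 in WT (0.09, adjusted p = 0.7).

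At 0 h no gene was called between genotypes in H3K27ac (8 tested, 1 with an unadjusted p under 0.05, against 0.77% of tested genes called in either direction). Irgm1 had the most signal, at 852, 917 and 874 normalized tags in WT and 889, 885 and 871 in KO. At Iigp1 every KO library and 2 WT libraries had no region, while the remaining WT library had 10.2. The lower Pol II of Gbp2 at 0 h in KO was not matched, since H3K27ac was 248, 236 and 239.7 in WT and 243, 254 and 247 in KO, which overlap. At Gbp5 H3K27ac was 36.4, 44.5 and 34.8 in WT and 26.6, 31.0 and 28.2 in KO (−0.33, adjusted p = 0.47), with the groups apart.

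At 1 h H3K27ac was lower in KO at 6 genes and higher at none, against 7.41% of tested genes called lower. One of the 6, Iigp1, was tested only through its WT libraries. Gbp5 had 804, 740.3 and 817 in WT and 621, 371 and 382 in KO (−0.81 ± 0.15, adjusted p = 0.0032). Gbp3 had 1122, 1166 and 1003 in WT and 917, 784 and 740.0 in KO (−0.43 ± 0.08, adjusted p = 0.0046). Gbp7 had 716, 784 and 649 in WT and 509, 393 and 359 in KO (−0.77 ± 0.20, adjusted p = 0.019). In each of these 3, KO replicate 1 was the highest KO library. Igtp had 439.8, 410.0 and 452 in WT and 334, 285 and 276 in KO (−0.53 ± 0.11, adjusted p = 0.0066), and the window of Irgm2 in GENCODE is nearly the same. With the RefSeq start, Irgm2 had 602, 606 and 608 in WT and 329, 350.3 and 367 in KO (−0.78, adjusted p = 0.00023). Iigp1 had 24.1, 15.3 and 27.5 in WT and 9.24 in 1 KO library, with 0 in the others (−1.36 ± 0.35, adjusted p = 0.019). It met the condition for testing only through WT, where it is higher, so this call is no separate support for the direction. The calls of Gbp7 (−0.66 to −0.77) and Iigp1 (−1.20 to −1.31) were lost without KO 1 h replicate 2 or 3, without WT 1 h replicate 1, and without WT 1 h replicate 2 for Gbp7 or 3 for Iigp1. They were called in 27 and 25 of 32 other settings, and were also lost for Gbp7 within 1000 bp of the start (−0.59, adjusted p = 0.071) and for Iigp1 with the RefSeq start (−0.88, adjusted p = 0.062). The change of Gbp5, whose RefSeq start lies 2956 bp further on, was −0.51 there (adjusted p = 0.02) and −0.52 within 1000 bp of the GENCODE start (adjusted p = 0.026). Gbp2 had 1333, 1332 and 1339.7 in WT and 1221, 860.3 and 827 in KO (−0.48, adjusted p = 0.085), Gbp6 −0.77 (adjusted p = 0.07) and Irgm1 −0.23 (adjusted p = 0.26).

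**Figure D4:**
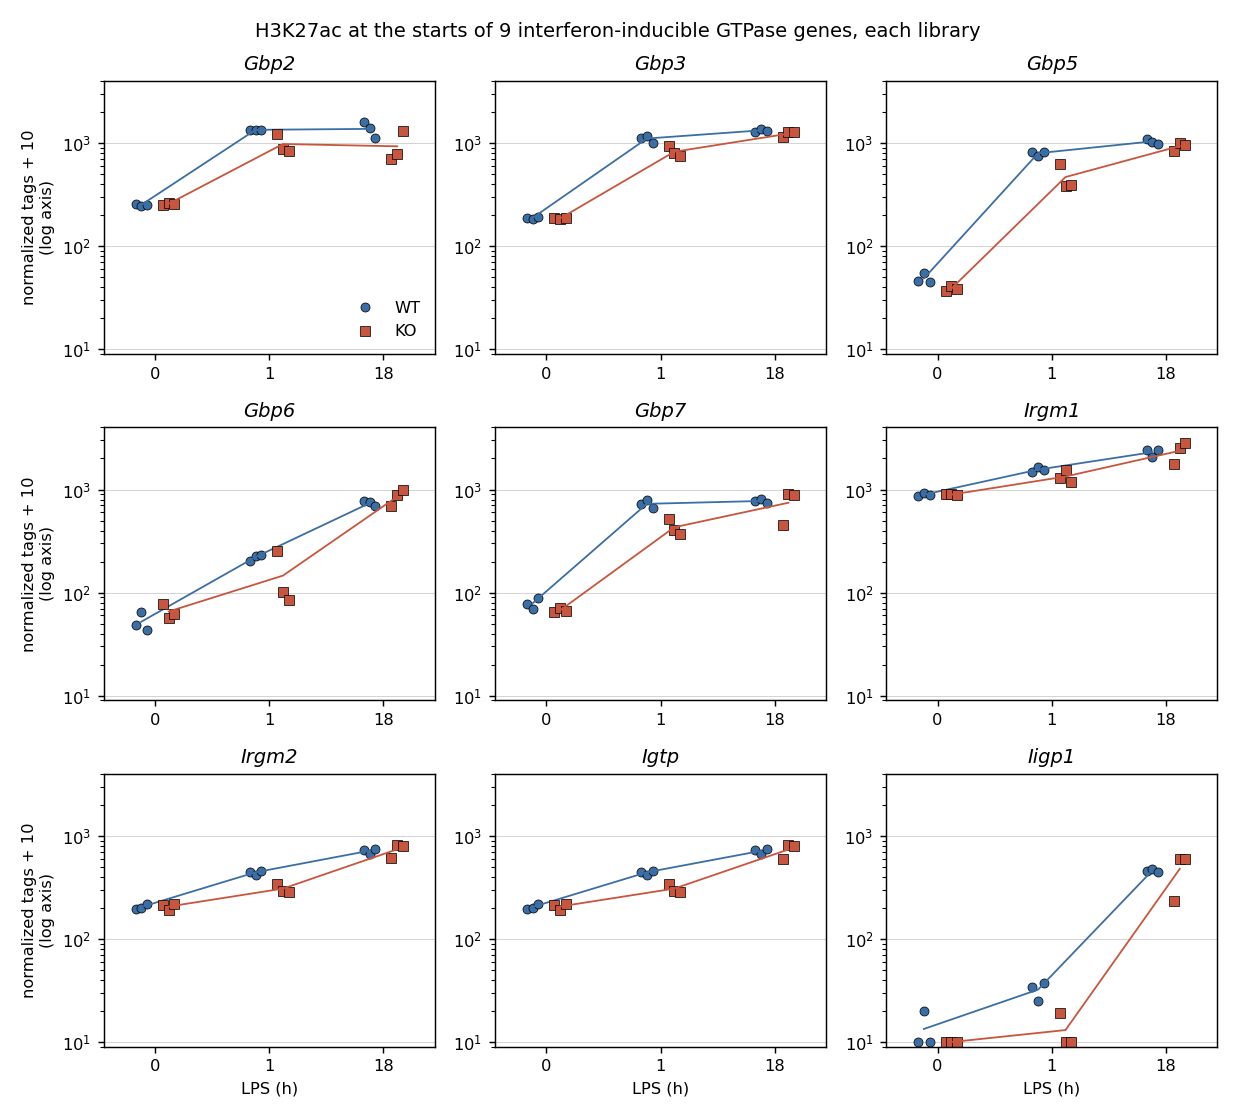
H3K27ac signal (normalized tags plus 10, log axis) within 2500 bp of the start of each gene in every library at 0, 1 and 18 h of LPS. Points are libraries and lines join group means. The mean of KO lies below that of WT at 1 h at all 9 genes, with 7 of them apart, and the genotypes overlap at 18 h at 8 of the 9.

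At 18 h H3K27ac was not called between genotypes at any of the 9 genes (limma; 1 had an unadjusted p under 0.05), against 3.24% of tested genes called in either direction. The one with an unadjusted p under 0.05 was Gbp2, at 1609, 1378 and 1103 normalized tags in WT and 689.5, 776 and 1296 in KO (−0.60 ± 0.19, adjusted p = 0.092), lower in KO where its Pol II was higher, with ranges that overlapped. It was called in 2 of 32 other settings. Only at Gbp3 were the groups apart, at 1284, 1368 and 1307 in WT and 1123, 1268 and 1282 in KO (−0.11, adjusted p = 0.51). KO replicate 1 was low at Iigp1, with 223 against 593 and 591 in the other KO libraries and 450.0, 464 and 442 in WT. The same library was low at Gbp7, at 443 against 886 and 874, with 766, 804 and 723 in WT. Libraries KO 1 h replicate 1 and KO 18 h replicate 1 stood apart over all genes as well, with correlations across 10438 genes of 0.910 and 0.912 at 1 h against 0.991 between the other KO libraries, and of 0.913 and 0.914 at 18 h against 0.993. Genes are not independent replicates, and these correlations describe the libraries. Without both libraries a larger share of all tested genes was called as well. In that fit 8 of the 9 genes (not Irgm1) were lower in KO at 1 h, against 24.3% of tested genes, and the interaction at 1 h was lower at 8, against 22.9%. Iigp1 is among them and was tested there only through WT. The interaction was higher at 8 genes from 1 to 18 h, against 17%, and at 1 gene at 18 h, against 2.18%, and 1 gene was lower in KO at 0 h, against 2.48%.

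With all libraries the genotype difference in the LPS response of H3K27ac at 1 h was called at 0 of the 9 genes (limma; 5 had an unadjusted p under 0.05), against 0.543% of tested genes called in either direction. At 18 h it was 0 genes (1 with an unadjusted p under 0.05), against 0.63%. The change from 1 to 18 h, again added after the values were seen, was higher in KO at 2 genes, Igtp (0.56 ± 0.16, adjusted p = 0.04) and Irgm2 (0.56 ± 0.15, adjusted p = 0.038), against 2.01% called higher, and these 2 share a window. Of the 18 fits without 1 library, the call was lost in 16 for Igtp and in 13 for Irgm2. At 1 h Gbp3, Gbp7, Irgm2 and Igtp were called lower in KO in both Pol II and H3K27ac, Gbp2 and Irgm1 in Pol II only and Gbp5 in H3K27ac only. Iigp1 was called lower in both as well, but in H3K27ac it was tested only through WT. Whether the 2 measures differed from each other was not tested.

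The input libraries, 1 per genotype and time and so without replicates, had a signal at these genes that differed between samples. Over the Pol II windows of the 9 genes it was higher in WT at 2 genes and in KO at 6 at 0 h, higher in WT at 7 and in KO at 2 (Iigp1 and Irgm1) at 1 h, and higher in WT at all 9 at 18 h. At Iigp1, the gene with the largest Pol II difference at 1 h, it was 0 in WT and 5.58 in KO at that time. At Gbp2 it was 30.2, 176 and 266 normalized tags in WT and 58.7, 101 and 19.8 in KO at 0, 1 and 18 h. At Gbp5 it was 5.85, 274 and 258 in WT and 36.5, 180 and 12.6 in KO. At these 2 genes the input was higher in WT at 18 h, opposite to the Pol II difference, and at 1 h, in its direction. It was far below Pol II at both genes after LPS, but at 0 h the KO input exceeded Pol II in the KO libraries at both. The same held at 0 h in KO at Gbp7 (input 58.3, Pol II 15.9 to 27.3) and Gbp3 (input 46.5, Pol II 29.8 to 43.1). At Gbp6 the KO input was 10.5 at 0 h, with Pol II at 10.9, 13.2 and 0. The part of the input in the differences was not tested.

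The order of the Pol II levels was the same in 5 genes (Gbp2, Gbp3, Irgm1, Irgm2 and Igtp), namely KO at 18 h, WT at 18 h, WT at 1 h, KO at 1 h, WT at 0 h and KO at 0 h. At Gbp2 no neighbours in that order overlapped, and at Gbp3 and Irgm1 only WT and KO at 0 h did. Gbp6 differed in having KO above WT at 1 h, and Iigp1 in having WT at 0 h above KO at 1 h. At Gbp5 and Gbp7 the mean of WT at 1 h was highest, followed by those of KO at 18 h and KO at 1 h, which overlapped each other, and at Gbp5 KO at 18 h also overlapped WT at 1 h.

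Other genes of these families were taken from lists, and the values are of Pol II unless H3K27ac is named. Among all tested genes, 2.73% were called lower and 4.23% higher in KO at 0 h, 7.49% lower and 38.2% higher at 1 h, and 7.58% higher and 13.5% lower at 18 h. Of 6 other guanylate-binding proteins, 5 were tested at 18 h and all 5 were higher in KO, among them Gbp2b (log2 change 1.17), Gbp10 (1.04) and Gbp4 (0.82), while at 1 h 2 of 3 tested were lower (Gbp8 −0.75 and Gbp9 −0.68). At 0 h none of 3 tested was called (limma; 1 had an unadjusted p under 0.05). In H3K27ac none of 4 tested was called at 1 h (limma; all 4 had an unadjusted p under 0.05) and none of 5 at 18 h (0 with an unadjusted p under 0.05). Of 18 other immunity-related and interferon-inducible GTPases, 5 of 11 tested were lower in KO at 0 h already and 1 higher, led by Gm4070 (−2.35), Tgtp1 (−0.92) and Tgtp2 (−0.87). At 1 h 8 of 11 tested were lower and 2 higher, led by Tgtp1 (−1.74), Gm12185 (−1.73) and Tgtp2 (−1.14). At 18 h 3 of 13 were higher and 1 lower, with Gm4841 (2.81), F830016B08Rik (1.43) and Tgtp1 (0.73) leading. In H3K27ac 5 of 11 tested were lower in KO at 1 h, against 7.41%, and none was higher. At 18 h 1 of 12 was lower, against 3.24% of tested genes called in either direction. These families hold near-identical copies, whose tags the alignment can divide among genes, so single values are uncertain.

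Upstream genes of interferon signalling, 18 in all, were 14 higher and 4 lower at 1 h in WT, against 18.6% of tested genes called higher and 68.4% lower, led by Jak2 (5.18), Ifnb1 (4.53) and Irf1 (3.13). Ifnb1 encodes interferon-β, Jak2 a receptor kinase and Irf1 a transcription factor of these genes. At 1 h 7 of the 18 (against 7.49% of tested genes) were lower in KO and 1 (against 38.2%) higher, among them Irf8 (−1.24), a transcription factor of myeloid cells, and Usp18 (−0.93), which dampens interferon receptor signalling. At 18 h 3 were higher and 4 lower, against 7.58% and 13.5% of tested genes, led by Ifnb1 (1.12), Ifngr1 (−0.61) and Jak2 (0.55). For Ifnb1 the 18 h values were 0 in every WT library against a mean of 12.8 ± 8.93 in KO, after 225 ± 55.8 and 272 ± 35.8 at 1 h. At 18 h Ifnb1 was therefore tested only through KO, which fixed the direction of its change. The size of that change, and with it the lead place of Ifnb1, depends on the constant added to every value. Its call, 1 of the 3 higher, is no separate support for the direction. Of 20 partners and effectors of the GTPases (autophagy and inflammasome genes), 6 were higher in KO at 1 h, a share below the 38.2% of all tested genes, and 4 lower, among them Atg7 (1.09) and Rnf213 (−0.67). At 18 h 4 were higher and 4 lower, among them Aim2 (−1.08) and Rnf213 (0.46). In H3K27ac at 1 h 4 of the 18 upstream genes were lower in KO, and of 19 partners and effectors tested 2 were lower and 3 higher, against 7.41% of tested genes lower and 11.1% higher.

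Across the 18 Pol II libraries, the genes whose pattern was most like the mean of the 9 were Acsl1 (Pearson r = 0.996), Lrrc8c (0.996), Trim30a (0.995), Rnf213 (0.995) and Tmprss2 (0.993) among 10345 candidates. The libraries share their 6 groups, so the values describe likeness only. Acsl1 had group means of 179.7, 2443 and 4058 normalized tags in WT and 124, 1594 and 6257 in KO at 0, 1 and 18 h. Among the 9 genes themselves Gbp2 was most like their mean (0.985), followed by Gbp3 (0.973) and Irgm1 (0.950), and Iigp1 (0.830) and Gbp7 (0.880) were least like it.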

How the data were processed

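The authors trimmed and aligned reads to mm10 with HISAT2 2.1.0, removed duplicates and searched each library for enriched regions with HOMER (version not given), without input as control. Per the file headers, 500 bp windows at a Poisson p of 0.001 were stitched into regions of variable length, with a minimum distance between peaks of 1000 bp, although some deposited regions lie closer together than that. The deposited signal is the tags of a region per 10 M tags. The deposited score was not used. The catalogue number of the Pol II antibody is not the same in the label as in the article. A region not found in a library counts as 0.

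Regions were shared out by overlap over gene windows (GENCODE M21), with 9 member genes of 21897 protein-coding genes. Values were compared as log2(value + 10) with limma 3.58.1 in R 4.3.3, with 6 group means per antibody and an intensity trend. Genes with a region in 2 or more of the 3 libraries of any compared group were tested, with calls at an adjusted p under 0.05. The analysis was tested on simulated data. There were 12 comparisons per antibody. The change from 1 to 18 h between genotypes, the joint Gbp5 and Gbp7 window, RefSeq bounds and leaving out 2 H3K27ac libraries were chosen after seeing the data. The members and lists were chosen with earlier results of these data known. All 9 members are named, of each list up to 3 called genes per comparison with the largest change, and the 5 genes most like the members' mean. One gene of the lists is not reported here. Software was Python 3.11.15 with pandas 2.3.3, numpy 2.4.6, Biopython 1.88 and matplotlib 3.10.9, and the R package data.table in version 1.17.8. Same-numbered replicates did not deviate together, so no block was used. Their number limits the precision, and no counts were recovered.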

Additional observations from a re-analysis of the deposited data

Results flagged for a closer look

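The LPS response of Pol II differed between the genotypes by a test of the interaction at most of the 9 genes, as the log2 change in KO minus that in WT. At 1 h it was 1.41 for Gbp2, 1.40 for Gbp5, −0.75 for Igtp, −0.63 for Iigp1, −0.67 for Irgm1 and −0.68 for Irgm2. At 18 h it was 2.38 for Gbp2, 0.72 for Gbp3, 2.04 for Gbp5, 0.99 for Gbp6, 1.90 for Gbp7, 2.21 for Iigp1, 0.41 for Irgm1 and 0.57 for Irgm2. The low KO values at 0 h of Gbp2, Gbp5 and Iigp1 enter these differences at both times. From 1 to 18 h the difference was 0.97 for Gbp2, 0.81 for Gbp3, 0.64 for Gbp5, 2.24 for Gbp7, 1.20 for Igtp, 2.85 for Iigp1, 1.07 for Irgm1 and 1.25 for Irgm2. For H3K27ac the change from 1 to 18 h differed at Igtp (0.56) and Irgm2 (0.56), which share a window.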

How the results depend on the processing

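Of 149 called changes of the 9 genes, 110 kept direction and call in every alternative counted that gave an adjusted p. Leaving out regions that overlap input removed almost all values and is not counted, here or among the other settings above. Of the 4596 values computed, 138 lost the call and 17 reversed. The reversals were all in the narrower window of 500 bp (Pol II) or 1000 bp (H3K27ac) on either side of the start or in the scalings. In the narrower window Igtp and Irgm2, which then share the same start, reversed to 0.51 for KO against WT at 1 h, −0.58 for WT and −0.18 for KO at 1 h, 0.41 for the interaction at 1 h, −0.22 for that from 1 to 18 h and, in H3K27ac, −0.22 from 1 to 18 h in WT, and Gbp2 reversed to −0.22 for the interaction at 1 h. KO against WT at 1 h there had 4 genes lower and 2 higher, the latter in 1 shared window. Shares of all tested genes are not given for that window or the other alternatives below, except the fit without 2 H3K27ac libraries. Those counts therefore describe the 9 genes only. Counts there fell to 1 gene in KO against WT at 0 h, 4 at 18 h, 2 and 4 for the interaction at 1 and 18 h, and for H3K27ac 5 from 1 to 18 h in KO and 0 for that interaction; the cause was not tested. Median centring gave −0.069 for Gbp2, −0.58 for Gbp3 and −0.21 for Irgm1 from 1 to 18 h in WT, and quantile normalization 0.11 for Gbp5, 5 genes for KO against WT at 0 h and 4 for the H3K27ac interaction from 1 to 18 h. That interaction, 2 in the main analysis, gave 5 genes in the wider window, 0 without the trend and 0 with the replicate block, which paired no samples here (same-number correlations of deviations were not above 0.1 in every pair), and 0 to 7 leaving out 1 library. Without KO 1 h and KO 18 h replicate 1 of H3K27ac, it gave 8 (against 17% of tested genes), the interaction at 1 h 8 (22.9%), that at 18 h 1 (2.18%), and KO against WT at 0 h 1 (2.48%). A common density floor also gave 1 at 0 h, and RefSeq bounds 1 for the H3K27ac interaction at 1 h. Leaving out 1 library gave 0 to 5 genes for the H3K27ac interaction at 1 h (5 without KO 1 h replicate 1), 0 to 1 for H3K27ac between genotypes at 18 h and 3 to 5 for Pol II at 0 h (5 without WT 0 h replicate 1). Leaving out regions that overlap input left 3 genes with a Pol II value and none with H3K27ac, so it gave no calls.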
